A study of Homo sapiens with 95 samples.

Results

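The pentose phosphate pathway and the NADPH-forming enzymes around it were described through 7 genes of the 23895 gene symbols listed for every well: PGD, PGLS, TKT, TALDO1, RPIA, ME1 and IDH1. They were chosen by symbol for the role of their enzymes. The cells were AALE, an immortalized line of human bronchial epithelial cells, profiled as bulk wells by 3′ digital gene expression (3′DGE), in which each captured molecule carries a unique molecular identifier (UMI) and is counted at the 3′ end of its transcript. The genes overexpressed, each in its own population, were FGFR1, NRG1, PIK3CA and NFE2L2 (labelled NRF2), set against cells with an HcRed reporter vector, labelled HCRED. CRISPR populations were targeted at FAT1 or CDKN2A and were set against cells given a Cas9 and GFP plasmid without a guide, labelled GFP. Each of the 8 populations was labelled with the DMSO vehicle, cigarette smoke condensate (CSC, the particulate matter of smoke) at 24 µg/ml, benzo[a]pyrene (BaP, a polycyclic aromatic hydrocarbon of smoke) at 173 µM or NNK (a tobacco-specific nitrosamine) at 490 µM. All populations derive from the same line, and how many clones each population held was not given in the sources used here.

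As background, the pentose phosphate pathway takes glucose phosphate from glycolysis and returns NADPH and sugar phosphates. In its oxidative arm PGLS hydrolyses phosphogluconolactone and PGD oxidizes phosphogluconate, which releases NADPH and leaves ribulose phosphate. In its reversible arm RPIA interconverts ribulose and ribose phosphates, and TKT and TALDO1 move carbon units between sugar phosphates and so link ribose with glycolysis. ME1, the cytosolic malic enzyme, and IDH1, the cytosolic and peroxisomal isocitrate dehydrogenase, form NADPH outside the pathway. NADPH is the reductant for the glutathione and thioredoxin systems, for detoxifying reductases such as NQO1, and for fatty acid and sterol synthesis. The transcription factor NRF2 is known to raise PGD, TKT, TALDO1 and ME1 through antioxidant response elements in several cell types.

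Promoter sequences of the members are shown because both NRF2 overexpression and smoke constituents were tested. RefSeq promoter entries (GRCh38.p14 table) were present for all 7 genes, with 2 starts for IDH1, and each was placed on GRCh37, the same assembly as hg19, by an exact match. Both strands were searched for the core of the antioxidant response element, TGACNNNGC, and for the core of the xenobiotic response element bound by the aryl hydrocarbon receptor, GCGTG. The 300-base windows ran from 250 bases before the start to 50 after it. The antioxidant core was found in 3 of the 8 member windows, against 13.3% of 35116 promoter windows of the same length. The xenobiotic core was found in 5 of 8, against 36.5% of all windows, and no match of either motif overlapped a match of the other in these windows. The bases from 250 to 51 before the start are given 5′ to 3′ on the gene's own strand, with the antioxidant core in capitals, for PGD, for the IDH1 start that holds the core, for ME1, and for TKT, whose window held neither motif.
PGD (chr1:10458871-10459070, plus strand): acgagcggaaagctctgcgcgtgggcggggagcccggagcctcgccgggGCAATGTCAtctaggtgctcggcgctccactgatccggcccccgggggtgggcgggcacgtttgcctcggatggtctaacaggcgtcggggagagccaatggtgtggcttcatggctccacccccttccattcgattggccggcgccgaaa
IDH1 (chr2:209119846-209120045, minus strand): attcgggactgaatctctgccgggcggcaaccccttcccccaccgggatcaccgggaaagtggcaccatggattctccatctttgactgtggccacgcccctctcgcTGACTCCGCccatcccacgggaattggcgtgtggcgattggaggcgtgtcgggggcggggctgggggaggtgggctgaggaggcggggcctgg
ME1 (chr6:84140821-84141020, minus strand): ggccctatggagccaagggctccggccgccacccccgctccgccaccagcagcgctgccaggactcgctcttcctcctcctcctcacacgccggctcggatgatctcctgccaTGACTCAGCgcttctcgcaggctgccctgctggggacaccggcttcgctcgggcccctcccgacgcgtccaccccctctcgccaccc
TKT (chr3:53290089-53290288, minus strand): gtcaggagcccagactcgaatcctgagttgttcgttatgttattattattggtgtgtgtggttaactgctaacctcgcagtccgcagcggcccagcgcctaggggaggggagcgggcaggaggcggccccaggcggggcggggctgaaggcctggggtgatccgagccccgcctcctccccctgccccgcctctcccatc
The core lies 201 bases before the start of PGD, on the opposite strand, 143 before that of IDH1 and 137 before that of ME1. ME1 has a further match after its start, outside the stretch shown. TALDO1, PGLS, RPIA and the other IDH1 start held no antioxidant core in their windows, and RPIA and that IDH1 start held the xenobiotic core. A match is a string of letters and was not tested for binding.

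The analysis used the 82 wells with 1-digit replicate numbers, in 31 groups of which 25 held 3 wells. Total UMI counts ran from 692446 to 1895735 per well, with a median of 1293615. The count behind each member sets its precision: a well held 191 to 653 UMIs of IDH1, 113 to 301 of PGD, 59 to 192 of TALDO1, 24 to 110 of TKT, 3 to 54 of ME1 and 3 to 17 of PGLS. RPIA had 0 to 8 UMIs, 123 in all wells together, and was at 0 in 20 of the 82 wells, where 3 counts would still allow 2.08 to 3.84 CPM. CPM is the count per 1000000 counts of the well, that is, scaled to the well's total. All 12 basal epithelial markers had a median of at least 1 CPM, with a summed level of 3083 to 9614 CPM. Most of that sum was S100A2, with a median of 4316 CPM beside a median of 5149 CPM for the sum. The 18 markers of other cell types summed to 2.13 to 22.4 CPM, and 4 of them were at 0 throughout. Of these 18, 3 also had a median of at least 1 CPM: LYZ (3.799), DCN (2.361, up to 15.842) and PECAM1 (1.18). Each of the 6 targeted genes passed the test against its control in the labelled direction under DMSO. For CDKN2A this was not particular to its own knockout: against GFP cells its log2 fold change was -0.89 in CDKN2A cells and -0.80 in FAT1 cells (adjusted p = 0.000853 and 0.00202 by limma), and GFP cells were above HcRed cells by 0.76 (adjusted p = 0.00552). FAT1 also differed outside its own knockout. It was lower in GFP than in HcRed cells (-1.23, adjusted p = 0.00389 by limma) and higher in CDKN2A than in GFP cells (1.57, adjusted p = 2.93e-05). NFE2L2 was lower in FAT1 than in GFP cells under DMSO (-0.85, adjusted p = 9.39e-05 by limma). NRG1 cells under NNK replicate 2 stood apart in several members, and the fitted changes of the members under NNK against DMSO are given with and without that well.

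The question put to each chemical was which members differed from DMSO across populations with 3 wells in both arms, tested by limma with voom weights, with population as a covariate and Benjamini-Hochberg adjustment over all genes tested, at a threshold of 0.05. PGD, TKT and IDH1 rose under BaP and under NNK, and TALDO1 rose under CSC. No member was called as lower under any chemical by limma. CSC called 1 of 7 members, and among all genes 5.81% were called, 2.95% as higher. BaP called 3 of 7 as higher, with 9.16% of all genes called and 5.04% called as higher. NNK also called 3 of 7 as higher, with 7.22% of all genes called and 3.07% called as higher. The median log2 fold change of the 7 members was 0.21 under CSC, 0.15 under BaP and 0.24 under NNK, beside medians over all genes tested of -0.00, 0.01 and -0.01. The 3 comparisons share DMSO wells. A plate row was given over to 1 chemical, and the effects of row and chemical cannot be told apart. In bulk wells a change per cell and a change in which cells were present cannot be told apart either.

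**Figure D1:**
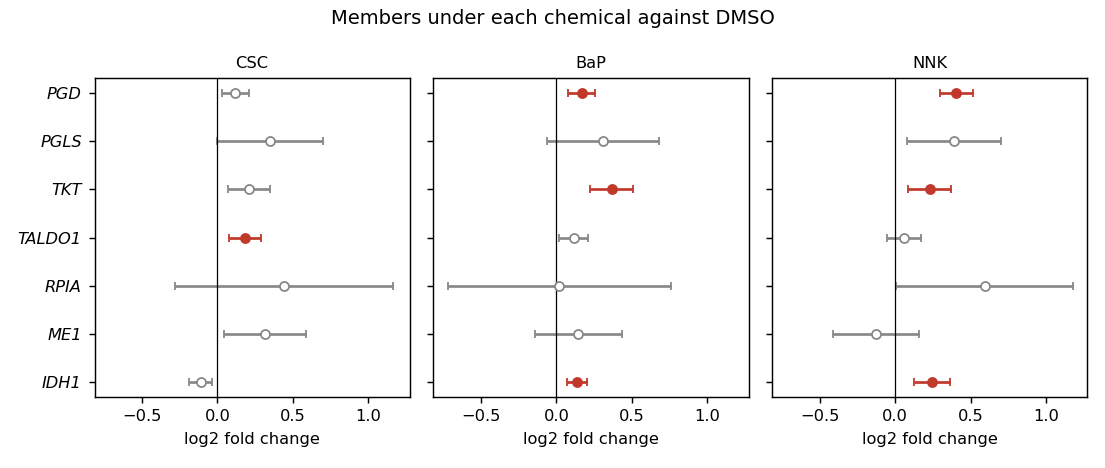
Log2 fold change of each member under CSC, BaP and NNK against DMSO (x axis, log2 scale) from limma, with bars of 95% intervals (1.96 standard errors). Filled red points passed the adjusted threshold: TALDO1 under CSC, and PGD, TKT and IDH1 under both BaP and NNK. RPIA and PGLS have wide bars.

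PGD, the NADPH-forming dehydrogenase of the oxidative arm, was at 111 to 178 CPM in the 21 DMSO wells of the NNK comparison, with a median of 134. In the 21 NNK wells it ran from 138 to 266 CPM, with a median of 166. Within each of the 7 populations every NNK well lay above every DMSO well. In GFP cells, for example, the DMSO wells held 171, 178 and 174 CPM and the NNK wells 214, 230.1 and 266 CPM. In FAT1 cells, where the mean of PGD under DMSO was lowest, the DMSO wells held 123, 114 and 112 CPM and the NNK wells 140.4, 138 and 146 CPM. The ratio of means ran from 1.20 in NRF2 cells to 1.36 in GFP cells. The fitted log2 fold change was 0.40 (SE 0.05), a 1.32-fold rise, with an adjusted p of 2.06e-08 by limma, and it was 0.44 without NRG1 NNK replicate 2.

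Under BaP, PGD ran from 117 to 234 CPM with a median of 147, against 112 to 178 and 138 in the matching DMSO wells, and the arms overlapped in 3 of 5 populations. The rise was 0.17 on the log2 scale (SE 0.05, adjusted p = 0.00784 by limma), and it missed the threshold without the wells of replicate number 2 (0.18, adjusted p = 0.0755) or number 3 (0.13, adjusted p = 0.181), and in a fit over all 31 groups (adjusted p = 0.0531). Under CSC, PGD had a log2 change of 0.12 (SE 0.04) that did not pass (adjusted p = 0.117 by limma), although the mean was above DMSO in 5 of 5 populations. It passed by limma in a fit with the wells with 2-digit numbers included (0.19, adjusted p = 0.000266). That fit took in all 8 populations, so populations left out of the main comparison entered too. PGLS, which precedes PGD in the oxidative arm, had log2 fold changes of 0.35 under CSC, 0.31 under BaP and 0.39 under NNK, with SEs of 0.18, 0.19 and 0.16, and passed in none (adjusted p = 0.312, 0.359 and 0.134 by limma). The mean of PGLS was above DMSO in 5 of 5 populations under CSC, 4 of 5 under BaP and 7 of 7 under NNK. Its interval under NNK was 0.075 to 0.698, and without NRG1 NNK replicate 2 the change was 0.36 (adjusted p = 0.103 by limma). PGLS had 3 to 17 UMIs per well, and what size of change could be detected at that depth was not tested.

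**Figure D2:**
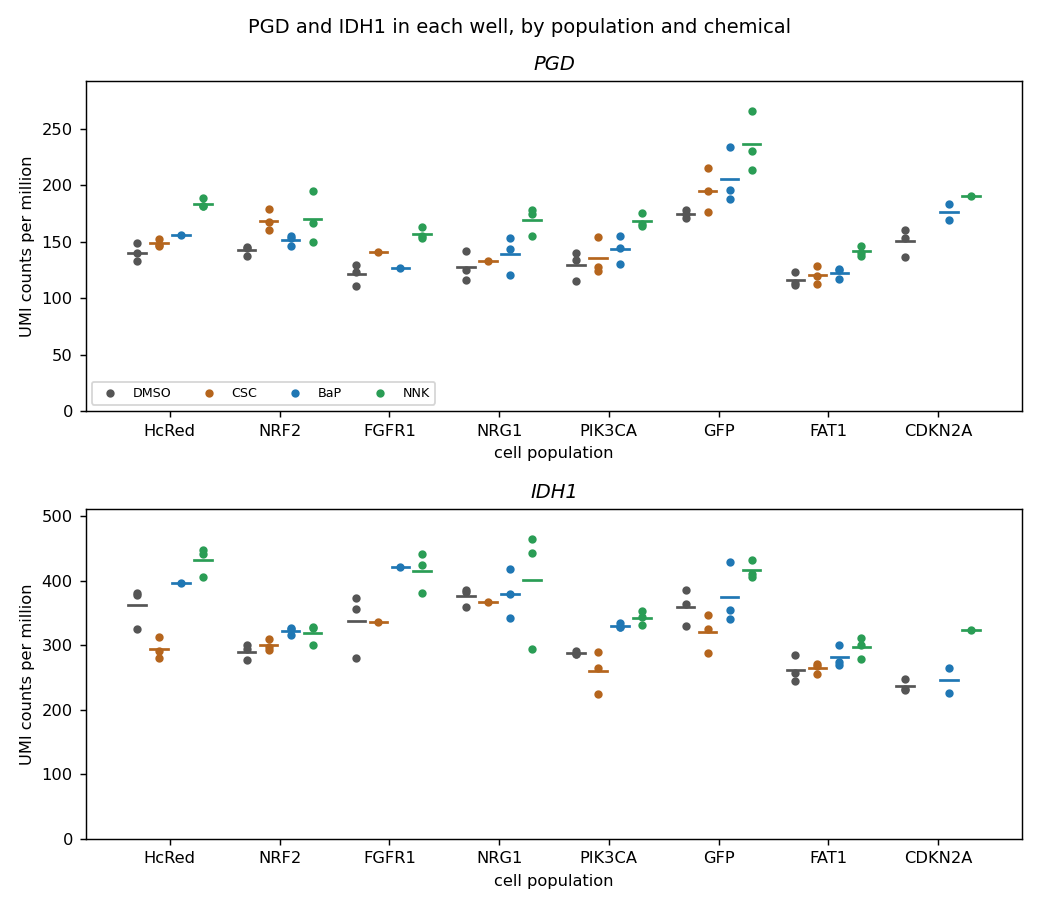
PGD (upper panel) and IDH1 (lower panel) in each of the 82 wells, in CPM on an axis from 0, by population and chemical. Points are wells and short lines are group means. PGD lies higher under NNK than under DMSO in every population plotted, and GFP cells carry the highest PGD.

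In the reversible arm, TKT ran from 28.5 to 61.9 CPM in the 15 DMSO wells of the BaP comparison, with a median of 45.1, and from 38.6 to 71.2 CPM under BaP, with a median of 58.0. All BaP wells lay above all DMSO wells in 3 of 5 populations. NRG1 cells were one of these, with 38.8, 43.4 and 45.1 CPM under DMSO and 64.1, 55.4 and 58.7 CPM under BaP. The fitted rise was 0.37 on the log2 scale (SE 0.07), or 1.29-fold, with an adjusted p of 0.000142 by limma. Without the wells of replicate number 1 it was 0.25 with an adjusted p of 0.0568. Under NNK, TKT rose by 0.23 (SE 0.07, adjusted p = 0.0365 by limma), but the arms overlapped in 7 of 7 populations. That call was lost without replicate number 1 (0.11, adjusted p = 0.612) or number 3 (0.29, adjusted p = 0.0573), and the adjusted p was 0.00716 without NRG1 NNK replicate 2 alone (0.24). Under CSC, TKT had a log2 change of 0.21 (SE 0.07) that did not pass (adjusted p = 0.0641 by limma) and did pass by edgeR's quasi-likelihood test (adjusted p = 0.0471).

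TALDO1, the partner of TKT in sugar rearrangement, ran from 85.8 to 110.2 CPM in 15 DMSO wells and from 87.7 to 135 CPM in 15 CSC wells, with medians of 97.4 and 109.9. Every CSC well lay above every DMSO well in 2 of 5 populations. In NRF2 cells TALDO1 was at 110.2, 110.2 and 101 CPM under DMSO and 131, 135 and 127 CPM under CSC, while in FAT1 cells the CSC wells, at 98.3, 109.9 and 91.8 CPM, overlapped the DMSO wells at 97.8, 105 and 107. The fitted rise was 0.18 on the log2 scale (SE 0.05), or 1.14-fold, with an adjusted p of 0.0217 by limma. It was lost without replicate number 2 (0.13, adjusted p = 0.394) or number 3 (0.17, adjusted p = 0.159). TALDO1 did not pass under BaP (0.12, adjusted p = 0.1396) or NNK (0.06, adjusted p = 0.626, and 0.09, adjusted p = 0.178, without NRG1 NNK replicate 2) by limma. Its BaP difference passed by limma in the fit over all 8 populations with the wells with 2-digit numbers included (0.17, adjusted p = 0.00162). RPIA, the isomerase, had log2 fold changes of 0.44, 0.02 and 0.59 under CSC, BaP and NNK with SEs of 0.37, 0.38 and 0.30, at low counts. It passed in none (adjusted p = 0.621, 0.986 and 0.248 by limma). Without NRG1 NNK replicate 2 the NNK value of RPIA was 0.50 (adjusted p = 0.262).

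**Figure D3:**
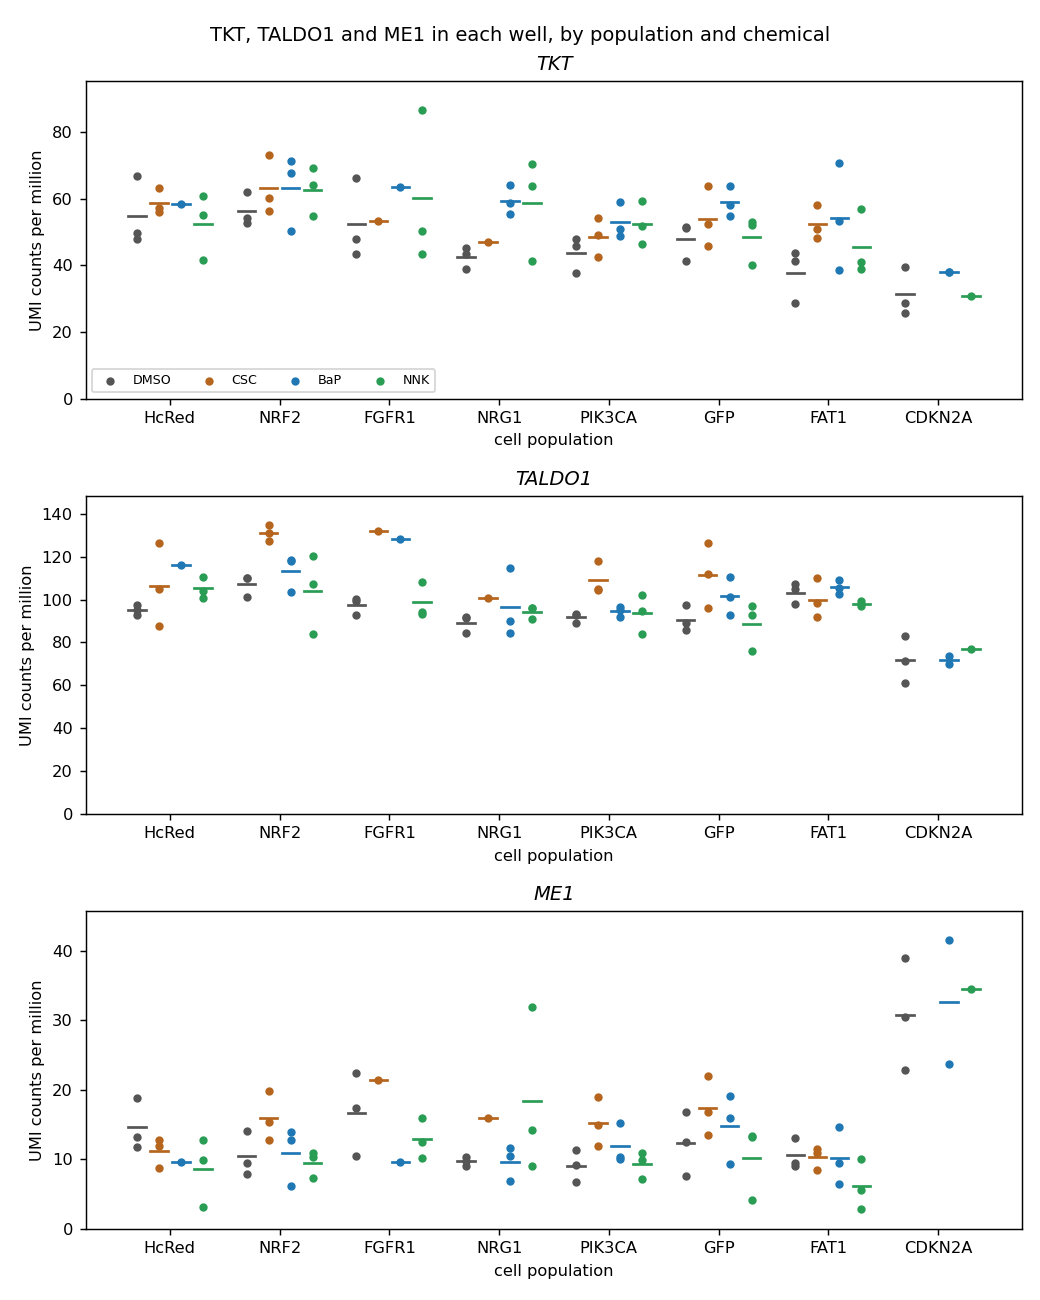
TKT, TALDO1 and ME1 in each of the 82 wells, in CPM on an axis from 0, by population and chemical. Points are wells and short lines are group means. CDKN2A cells lie lowest for TALDO1 and highest for ME1 under DMSO, at 61.0 to 82.8 and 22.9 to 38.9 CPM.

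IDH1 rose under NNK and BaP, and its value under CSC was below that under DMSO without passing the test. Under NNK it ran from 279 to 465 CPM in 21 wells, against 244 to 386 CPM in the DMSO wells, with medians of 381 and 325. Every NNK well lay above every DMSO well in 5 of 7 populations. FAT1 cells overlapped, and so did NRG1 cells, where the NNK wells held 443, 295 and 465 CPM and the DMSO wells 383, 359.9 and 386. The rise was 0.24 (SE 0.06), or 1.18-fold, with an adjusted p of 0.00577 by limma, and 0.31 (adjusted p = 1.24e-11) without NRG1 NNK replicate 2. It was lost without replicate number 1 (0.24, adjusted p = 0.0836) or number 3 (0.22, adjusted p = 0.1004). Under BaP, IDH1 rose by 0.14 (SE 0.04, adjusted p = 0.00546 by limma), with a higher mean in 5 of 5 populations and overlap in 3. This call was lost without replicate number 2 (0.11, adjusted p = 0.163) or number 3 (0.12, adjusted p = 0.114), and in a fit over all 31 groups (adjusted p = 0.1404). Under CSC the log2 fold change was -0.11 (SE 0.04) and did not pass (adjusted p = 0.0740 by limma). It passed by edgeR (adjusted p = 0.0429) and without replicate number 2 (-0.17, adjusted p = 0.0236).

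ME1 did not pass against DMSO under CSC (0.31, SE 0.14, adjusted p = 0.211), BaP (0.15, SE 0.15, adjusted p = 0.634) or NNK (-0.13, SE 0.15, adjusted p = 0.680) by limma. Without NRG1 NNK replicate 2 the NNK value was -0.24 (adjusted p = 0.249). The ratio of its means ran from 0.58 to 1.89 between populations under NNK. The upper end was NRG1 cells, where NNK replicate 2 held 31.9 CPM and the other wells 14.2 and 9.1.

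The response of each member was also compared between populations by an F test of the population by chemical term in limma. No member passed for CSC, BaP or NNK by limma, edgeR or DESeq2, and 0.106%, 0.106% and 0.0176% of all genes did by limma. The smallest unadjusted p among the members was 0.0839 for ME1 under CSC, and no member was below 0.05 in any of the 3 tests. At 3 wells a group this does not show that the populations responded alike.

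**Figure D4:**
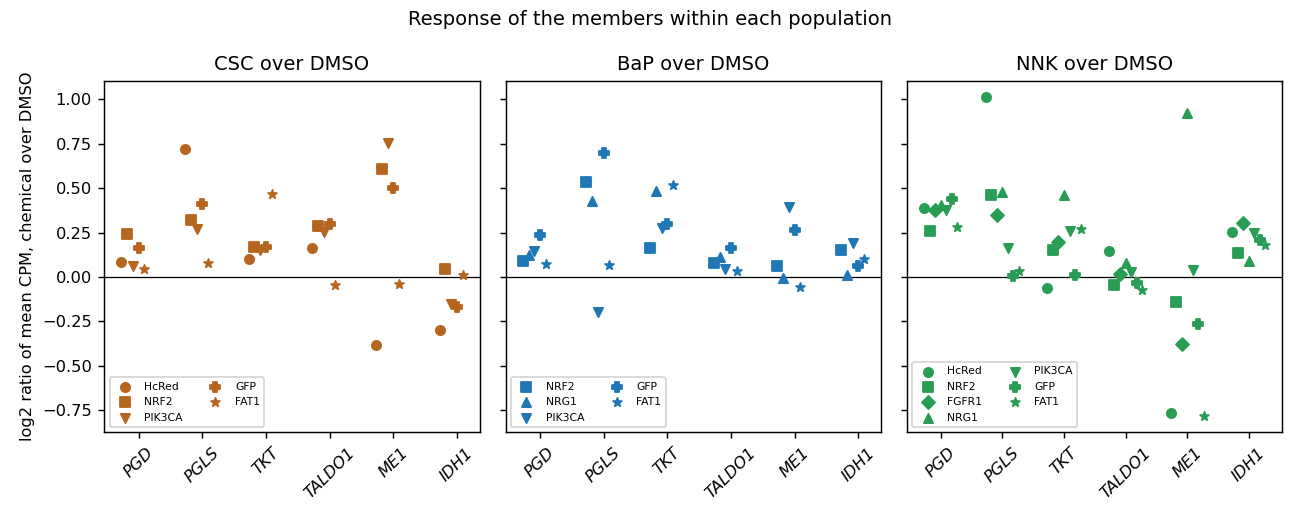
Log2 ratio of the mean CPM under a chemical to that under DMSO (y axis, log2 scale) for 6 members within each population with 3 wells in both arms, one marker shape per population; RPIA is left out for its low counts. PGD under NNK is above 0 in 7 of 7 populations, and IDH1 under CSC lies on both sides of 0.

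Set directly against each other in the populations with 3 wells under both, CSC and NNK differed in IDH1, PGD and ME1. CSC wells held 224 to 347 CPM of IDH1 and NNK wells 279 to 447 CPM over 5 populations, and in 4 of the 5 every CSC well lay below every NNK well. IDH1 was lower under CSC than under NNK by a log2 change of -0.40 (SE 0.04, adjusted p = 2.64e-12 by limma). PGD was lower as well, at -0.31 (SE 0.05, adjusted p = 1.03e-06), with no overlap in 3 of 5 populations. ME1 was higher under CSC, at 8.44 to 22 CPM against 2.88 to 13.4, a log2 change of 0.65 (SE 0.16, adjusted p = 0.00255 by limma). Thus 3 of 7 members were called between CSC and NNK, beside 12.3% of all genes. Between CSC and BaP, over 4 populations, IDH1 alone was called, lower under CSC by -0.25 (SE 0.04, adjusted p = 3.33e-05 by limma), beside 4.58% of all genes. The other NADPH-forming members had intervals of -0.17 to 0.04 (PGD) and -0.02 to 0.58 (ME1) for that difference. Between BaP and NNK no member passed by limma, beside 0.996% of all genes, though PGD had an unadjusted p below 0.05 and a log2 difference of -0.22 (SE 0.07, adjusted p = 0.113). That result depended on NRG1 NNK replicate 2: without it PGD (-0.28, adjusted p = 2.64e-05) and IDH1 (-0.16, adjusted p = 0.00408) were both lower under BaP. DESeq2 called PGD with that well included (adjusted p = 0.0292). The doses were in different units and had no common scale, so these are differences between the exposures as given.

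Populations were compared with their controls under DMSO to ask which perturbations moved the members without a chemical. Each population kept its columns on the plate, so population and plate position cannot be told apart. The largest count was in CDKN2A knockout cells, the locus of the p16 and ARF tumor suppressors, where 4 of 7 members were called against GFP cells, beside 17.9% of all genes. ME1 was at 22.9, 38.9 and 30.5 CPM in CDKN2A cells and at 7.55, 12.5 and 16.9 CPM in GFP cells. All 3 CDKN2A wells lay above all 21 other DMSO wells, the next of which held 22.4 CPM in FGFR1 cells. The rise was 1.19 (SE 0.27), or 2.28-fold, with an adjusted p of 0.000477 by limma, and from 0.92 to 1.46 when wells were left out in turn. The same cells under BaP held 41.5 and 23.7 CPM. Under NNK the well with a 1-digit number held 34.5 CPM, and the wells with 2-digit numbers, left out of the tests, held 14.9 and 13 CPM, below all CDKN2A wells under DMSO.

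The other called members were lower in CDKN2A cells. IDH1 was at 233, 231 and 247 CPM against 386, 329.8 and 364 in GFP cells, without overlap, a fall of 0.71 on the log2 scale (log2 fold change -0.71, SE 0.12, adjusted p = 1.2e-06 by limma). TKT was at 25.7, 39.6 and 28.6 CPM against 41.1, 51.5 and 51.3, also without overlap, with a log2 change of -0.75 (SE 0.19, adjusted p = 0.00196). TALDO1 was at 71.4, 82.8 and 61.0 CPM against 97.4, 88.9 and 85.8, and every CDKN2A well lay below all 21 other DMSO wells. Its log2 fold change was -0.45 (SE 0.15, adjusted p = 0.0252 by limma). That call was lost by DESeq2 (adjusted p = 0.0588) and without GFP replicate 1 (-0.38, adjusted p = 0.166), 2 (-0.46, adjusted p = 0.0703) or 3 (-0.49, adjusted p = 0.0560) or CDKN2A replicate 3 (-0.36, adjusted p = 0.144). PGD was at 161, 153 and 137 CPM against 171, 178 and 174 and did not pass (-0.33, SE 0.13, adjusted p = 0.0704 by limma), but passed in the fit over all 31 groups (adjusted p = 0.0348).

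In FAT1 knockout cells 2 of 6 members tested were lower than in GFP cells, beside 14.1% of all genes, and RPIA fell under the count filter. PGD was at 123, 114 and 112 CPM against 171, 178 and 174, with a log2 change of -0.53 (SE 0.10, adjusted p = 3.88e-05 by limma). IDH1 was at 286, 244 and 257 CPM against 386, 329.8 and 364, with a log2 change of -0.40 (SE 0.08, adjusted p = 7.2e-05). The GFP control itself differed from the HcRed control, with 10.8% of all genes called. PGD was the 1 member called there, at 133, 149 and 140.2 CPM in HcRed cells, below every GFP well, with a log2 fold change of 0.36 for GFP over HcRed (SE 0.09, adjusted p = 0.00619 by limma), which missed the threshold in a fit over all 31 groups (adjusted p = 0.0558). GFP cells carried more PGD than any of the other 21 DMSO wells, which ran from 111 to 161 CPM. Differences from GFP cells in PGD therefore start from the highest population.

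**Figure D5:**
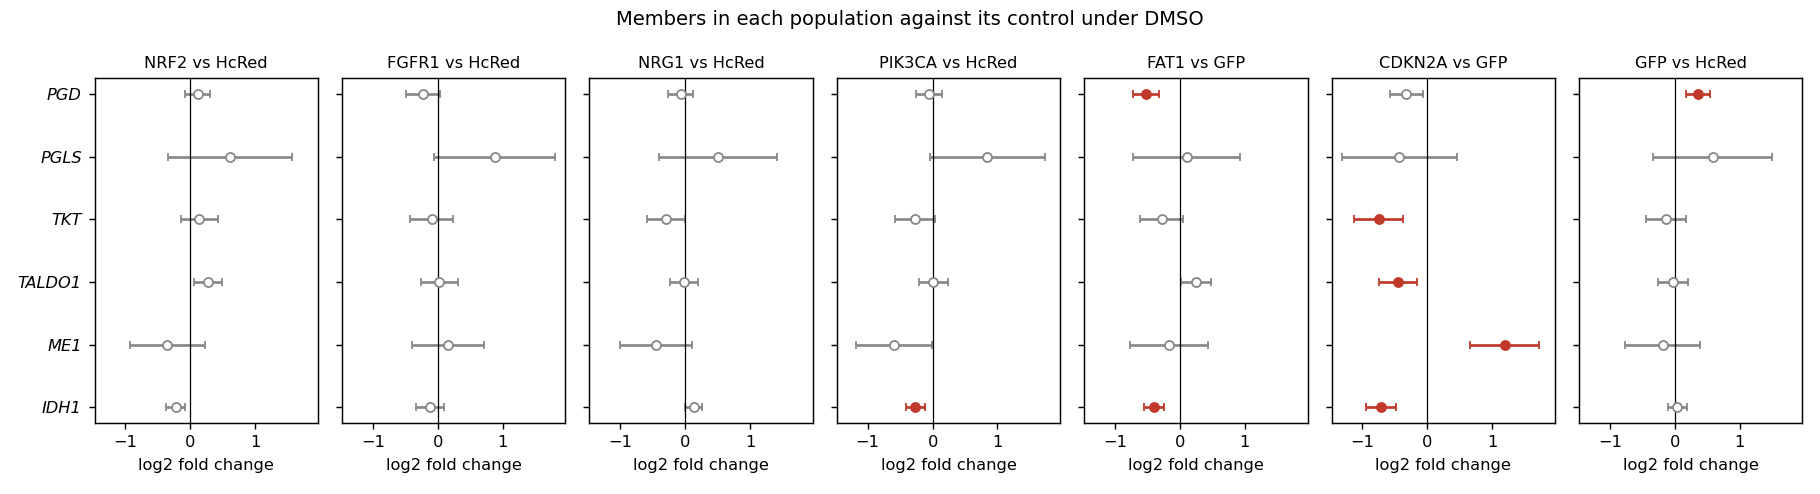
Log2 fold change of 6 members in each population against its control under DMSO (x axis, log2 scale) from limma, with bars of 95% intervals (1.96 standard errors); RPIA is left out for its low counts. Filled red points passed the adjusted threshold: IDH1 in PIK3CA cells, PGD and IDH1 in FAT1 cells, 4 members in CDKN2A cells, and PGD in the GFP control against HcRed.

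NRF2 overexpression was of interest because of what the factor is known to regulate. NFE2L2 itself was higher than in HcRed cells by a log2 change of 1.84 (SE 0.14, adjusted p = 8.77e-19 by limma). None of the 7 members passed under DMSO by limma, beside 4.91% of all genes, while 2 members, TALDO1 and IDH1, had an unadjusted p under 0.05, and edgeR called 1 and DESeq2 0. IDH1 was at 299.8, 278 and 294 CPM in NRF2 cells, below all HcRed wells at 325, 379 and 382, a log2 change of -0.23 (SE 0.07) whose adjusted p was 0.0509. It passed by edgeR (adjusted p = 0.0246), with median-ratio size factors (adjusted p = 0.0439) and without HcRed replicate 1 (adjusted p = 0.0142). TALDO1 was at 110.2, 110.2 and 101 CPM against 95.0, 92.6 and 97.6, without overlap, at 0.27 (SE 0.11, adjusted p = 0.192). The interval was -0.08 to 0.30 for PGD, -0.15 to 0.42 for TKT and -0.93 to 0.22 for ME1. Under CSC no member passed between NRF2 and HcRed cells, beside 2.88% of all genes, by limma, edgeR or DESeq2, and TALDO1, the 1 member with an unadjusted p under 0.05, was at 131, 135 and 127 CPM against 87.7, 126 and 105 (0.29, SE 0.12, adjusted p = 0.237).

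The CSC response within HcRed cells called no member by limma, beside 1.04% of all genes, and 1 at an unadjusted p under 0.05. That within NRF2 cells called none by limma, edgeR or DESeq2, beside 1.62%, and 2 (PGD and TALDO1) at an unadjusted p under 0.05. In HcRed cells IDH1 went from 325, 379 and 382 CPM under DMSO to 291, 312 and 280.1 under CSC (-0.26, SE 0.08, adjusted p = 0.0958 by limma), with no overlap, and it passed by edgeR (adjusted p = 0.0381) and without HcRed DMSO replicate 1 (-0.32, adjusted p = 0.0246). In NRF2 cells the log2 fold change of IDH1 was 0.01 (SE 0.07). The difference between the responses, tested as an interaction, passed for no member by limma, edgeR or DESeq2, beside 0.231% of all genes, and 2 members had an unadjusted p under 0.05. The difference was 0.27 for IDH1 (SE 0.11, adjusted p = 0.654) and 0.86 for ME1 (SE 0.42, adjusted p = 0.823).

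The remaining overexpression populations moved few members. PIK3CA cells had 1 member called, beside 5.4% of all genes: IDH1 at 287, 287 and 292 CPM against 325, 379 and 382 in HcRed cells, with a log2 change of -0.26 (SE 0.08, adjusted p = 0.0205 by limma). This was lost without PIK3CA replicate 1 (adjusted p = 0.0673) or 2 (adjusted p = 0.0620), or HcRed replicate 2 (adjusted p = 0.0699) or 3 (adjusted p = 0.162), and in a fit over all 31 groups (adjusted p = 0.316). FGFR1 cells and NRG1 cells had no member called by limma, edgeR or DESeq2 and 0 at an unadjusted p under 0.05, beside 0.914% and 3.08% of all genes called by limma. In order of IDH1 under DMSO the populations ran from NRG1 at a mean of 377 CPM through HcRed, GFP, FGFR1, NRF2, PIK3CA and FAT1 to CDKN2A at 237, and neighbours in that order overlapped except PIK3CA and FAT1, at 287 to 292 and 244 to 286 CPM. For TKT all neighbours overlapped, from NRF2 at 56.3 to CDKN2A at 31.3.

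Other genes of the pathway and of NADPH supply were examined as a list of 28, of which 23 were tested in each chemical comparison. CSC called 0 as higher and 2 as lower, BaP 2 and 2, and NNK 1 and 1, with medians of -0.04, 0.07 and 0.04. Among all genes 5.81%, 9.16% and 7.22% were called. PRPS2, a ribose phosphate pyrophosphokinase that draws on the ribose made by the pathway, fell under CSC (-0.38, SE 0.11), BaP (-0.65, SE 0.13) and NNK (-0.55, SE 0.10), with adjusted p of 0.0237, 0.000204 and 3.18e-05 by limma. Its CSC call was lost by DESeq2 (adjusted p = 0.0561) and without any of the 3 replicate numbers (adjusted p = 0.0751 to 0.276), and its BaP call without number 2 (adjusted p = 0.0636). MTHFD1, a cytosolic folate enzyme that forms NADPH, fell by 0.16 under CSC (adjusted p = 0.00569) and by 0.17 under BaP (adjusted p = 0.000918). MTHFD2, its mitochondrial relative, rose by 0.15 under BaP (adjusted p = 0.000969 by limma), and the cofactor it used was not measured. IDH3A and IDH3B, subunits of the NAD-linked isocitrate dehydrogenase rather than of an NADPH-forming enzyme, also rose. IDH3A rose by 0.14 under BaP (adjusted p = 0.0314 by limma) and IDH3B by 0.44 under NNK (adjusted p = 0.00226). Several of these calls were lost when the wells of 1 replicate number were left out: MTHFD1 under CSC without number 2 (adjusted p = 0.0926), MTHFD2 without number 3 (adjusted p = 0.0539), IDH3A without number 2 (adjusted p = 0.0963) or 3 (adjusted p = 0.442), and IDH3B without number 2 (adjusted p = 0.0504). In the fit over all 31 groups MTHFD1 under CSC (adjusted p = 0.0826) and IDH3A under BaP (adjusted p = 0.158) did not pass. Nor did IDH3A under BaP in the fit over all 8 populations with the wells with 2-digit numbers included (adjusted p = 0.0932 by limma).

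NADPH-using enzymes were a list of 20 with 18 tested. CSC called 5 as higher and 1 as lower, BaP 7 and 1, and NNK 5 and 1, with medians of 0.16, 0.26 and 0.20, beside the same 5.81%, 9.16% and 7.22% of all genes called. Under CSC the quinone reductase NQO1 rose by 1.27 on the log2 scale (SE 0.04, adjusted p = 2.92e-39 by limma), the thioredoxin reductase TXNRD1 by 0.93 (SE 0.05, adjusted p = 4.28e-28) and the aldo-keto reductase AKR1C3 by 1.28 (SE 0.10, adjusted p = 2.86e-18). Under BaP they rose by 0.87, 0.77 and 1.08. Under NNK, NQO1 rose by 0.28 (adjusted p = 4.64e-05 by limma) and the carbonyl reductase CBR1 by 0.30 (adjusted p = 0.000725). GSR, the glutathione reductase, fell by 0.33 under NNK (adjusted p = 0.0418 by limma), a call lost by edgeR (adjusted p = 0.0827), by DESeq2 (adjusted p = 0.141) and without replicate number 1 (adjusted p = 0.420) or 3 (adjusted p = 0.225). It was also lost without the count filter (adjusted p = 0.0516) and with median-ratio factors (adjusted p = 0.0660), and without NRG1 NNK replicate 2 alone it was -0.43 (adjusted p = 0.000566). CYP1A1 and CYP1B1, targets of the aryl hydrocarbon receptor, rose under all 3 chemicals, by 4.29 and 3.65 under CSC, 4.54 and 3.42 under BaP and 2.18 and 1.54 under NNK (adjusted p = 1.07e-13 or smaller by limma).

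In NRF2 cells under DMSO, MTHFD1 was higher than in HcRed cells (0.32, adjusted p = 0.000441 by limma), the 1 gene of the NADPH supply list called there, which did not pass in the fit over all 31 groups (0.31, adjusted p = 0.185). NQO1 (0.22, SE 0.09, adjusted p = 0.198) and TXNRD1 (0.24, SE 0.10, adjusted p = 0.167) did not pass there by limma.

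Across the 31 group means, pairs of members correlated in either direction. The Pearson correlation of log2(CPM + 1) was 0.73 between TKT and TALDO1 and 0.60 between PGLS and TKT, 0.32 between PGD and IDH1 and -0.48 between TKT and ME1. These describe groups that share populations, chemicals and plate rows and that rest on 1 to 3 wells each. The correlation of a member with the mean of the other members ran from -0.39 for ME1 to 0.57 for TKT, so that mean is not a profile all members share. The genes whose pattern was most like the mean of the members were CAPG (r = 0.76), MMADHC (0.74), DHRS1 (0.72), ATP5C1 (0.70) and MRPS18B (0.69), among 3949 genes with a mean count of at least 20. The summed level of the 7 members was lowest in CDKN2A cells under DMSO, at 527 CPM (SD 22.4, n = 3), and highest in GFP cells under NNK, at 806 CPM (SD 37.7, n = 3). IDH1 and PGD made up most of both sums, at means of 237 and 150 CPM in the former and 416 and 236 CPM in the latter.

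By position on GRCh37 the members lie apart from each other, PGD at chr1:10458649-10480568, TKT at chr3:53258728-53290068, TALDO1 at chr11:747415-765012, ME1 at chr6:83920121-84140770, IDH1 at chr2:209100953-209130798, PGLS at chr19:17622445-17632097 and RPIA at chr2:88991191-89050446. IDH1 overlaps the antisense transcript IDH1-AS1 over 968 bases, PGLS overlaps PGLS-DT over 254 bases and another noncoding transcript over 2236, and a processed pseudogene lies within ME1 on the opposite strand over 994 bases. These overlaps are between whole gene spans, introns included, while reads were aligned to transcripts. Overlap of exons or of 3′ ends was not examined, and whether the counting used strand was not given in the sources used here. Whether reads from these partners entered the counts was therefore not tested. PGD, TKT, TALDO1 and RPIA overlapped no other annotated gene.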

How the data were processed

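The files deposited by the authors hold raw UMI counts of each gene, from 3′DGE libraries (SCRB-seq) of AALE wells. Counting was done by the sequencing centre: per the methods, BWA 0.7.10 aligned reads to hg19 RefSeq transcripts, and each UMI added 1 count to its gene within a well. Strand handling was not given in the sources used here. Groups came from the sample titles. The 13 wells with 2-digit replicate numbers, whose origin the labels do not give, entered an alternative only. That alternative compared each chemical with DMSO over all 8 populations, so it also took in populations left out of the main comparisons. The study describes the replicates of a condition as biological, and p-values measure the spread between wells.

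Counts were analysed in R 4.3.3 with limma 3.58.1 (voom weights, TMM factors from edgeR 4.0.16) over genes with a mean count above 1, two-sided, with Benjamini-Hochberg adjustment over all genes and a threshold of 0.05. Variances are shared between genes, so very small p-values rest on more than 3 wells a group. Intervals are 95% normal intervals. Alternatives were edgeR's quasi-likelihood test, DESeq2 1.42.0, no count filter, median-ratio factors, a fit over all 31 groups, a replicate block and left-out wells. The members, lists and tests were chosen with earlier results of these data known. Named genes were the 7 members, up to 3 higher and 3 lower genes of each list in each chemical comparison and in NRF2 cells, the targeted genes, CYP1A1, CYP1B1 and the 5 genes most like the members' mean. Cell-type markers, named for their level only, are not counted among these. The scripts were tested on simulated counts. Of the 28 genes of NADPH supply, 27 symbols matched. Some genes that this rule picks from the list of NADPH users are counted in that list and are not reported here by name.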

Additional observations from a re-analysis of the deposited data

Results flagged for a closer look

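RPIA under NNK lay on opposite sides of DMSO in a pair of populations: every NNK well lay above every DMSO well in NRG1 cells (ratio of means 3.36) and below in PIK3CA cells (0.388). These populations were not tested as a pair. The F test of the NNK response between all populations compared did not pass for RPIA (adjusted p = 0.865 by limma). In the DMSO and NNK wells of NRG1 and PIK3CA cells RPIA had 0 to 3 UMIs each. The exception was NRG1 NNK replicate 2, which stood apart in other members and held 8.

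The 13 wells with 2-digit replicate numbers, which the comparisons leave out, held members above every DMSO well of their own population in several groups. For PGD this was so in CDKN2A cells under CSC (mean 204 CPM, 3 wells) and NNK (209.6 CPM), in FGFR1 cells under BaP (143 CPM) and CSC (139 CPM) and in HcRed cells under BaP (159.7 CPM), with 2 wells in each of the last 4. TALDO1 was higher in FGFR1 (115 CPM) and NRG1 cells (103 CPM) under CSC, TKT in NRG1 cells under CSC (47.5 CPM), IDH1 in CDKN2A cells under NNK (305 CPM) and RPIA in FGFR1 cells under BaP (2.6 CPM). The opposite was seen for IDH1 in NRG1 cells under CSC (302 CPM) and for ME1 in CDKN2A cells under NNK (14 CPM), which lay below every DMSO well, as did RPIA at 0 in CDKN2A cells under CSC. In most combinations of member and group these wells overlapped the DMSO wells. How many of all genes separated in the same way was not computed, and with 2 or 3 wells a group no result about the members is drawn from it.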

How the results depend on the processing

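Over 1767 recomputed log2 fold changes of members and named genes, none past the threshold changed sign. Of 225 counts of members called, 201 stayed within 1.5 times the main count. CSC against DMSO called 3 members by edgeR and 3 with the wells with 2-digit numbers and all 8 populations included, against 1. BaP against DMSO called 1 in the fit over all 31 groups, against 3. BaP against NNK called 1 by DESeq2, 1 in the fit over all groups and 2 without NRG1 NNK replicate 2, against 0. NRF2 against HcRed under DMSO called 1 by edgeR, 1 with median-ratio factors and 1 with the replicate block, against 0, which in each case was IDH1. PIK3CA against HcRed and GFP against HcRed each called 0 in the fit over all groups, against 1, and CSC within HcRed cells called 1 by edgeR, against 0. The cause was not tested. Beside that single well, leaving out wells in turn within a population comparison, or by replicate number in the pooled comparisons, gave 0 to 1 member for CSC, 1 to 2 for BaP and 1 to 3 for NNK against DMSO, 0 to 1 for BaP against NNK, for NRF2 and PIK3CA against HcRed and for CSC within HcRed cells, and 3 to 4 for CDKN2A against GFP. The wells of 1 replicate number were left out together, an alternative chosen after seeing the data. Leaving out each single well there was not run, except for NRG1 NNK replicate 2.

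Same-numbered wells did not deviate together: over 123 pairs the correlation had a median of 0.01 and was over 0.1 in 8, so the numbers were not taken as a pairing. Beside IDH1 above, the replicate block added PGD in CDKN2A cells (5 members called, against 4). Median-ratio factors moved the median of all genes by at most 0.025. Depth limits RPIA, PGLS and ME1 most.

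Counts over all genes moved by more than 1.5 times in part of the alternatives. With the wells with 2-digit numbers and all 8 populations included they were 1134 for CSC, 1926 for BaP and 1392 for NNK against DMSO, beside 661, 1036 and 819. Those fits held more wells and more populations than the main ones. NNK against DMSO gave 2145 without the count filter and 2245 without NRG1 NNK replicate 2. BaP against NNK gave 567 without that well and 194 in the fit over all groups, beside 112, and CSC against BaP 311 in that fit, beside 516. DESeq2 gave 342 for NRF2, 46 for FGFR1, 212 for NRG1 and 336 for PIK3CA against HcRed, 841 for FAT1 and 1252 for CDKN2A against GFP and 671 for GFP against HcRed, beside 551, 104, 349, 607, 1570, 2067 and 1202. For NRF2 against HcRed under CSC it gave 197, beside 319, and for the CSC response within HcRed and NRF2 cells 57 and 114, beside 115 and 182. The fit over all groups gave 204, 73, 331, 145, 49 and 54 for NRF2, NRG1 and PIK3CA against HcRed, NRF2 against HcRed under CSC, and CSC within HcRed and NRF2 cells, and no count filter gave 76 for CSC within HcRed cells. The interaction called 26 genes, and 6 by edgeR, 16 by DESeq2, 0 in the fit over all groups and 55 with the replicate block. The response tests between populations called 12, 12 and 2 genes for CSC, BaP and NNK, and 1 to 20 under the alternatives that moved them.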

Other observations

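ME1 in CDKN2A cells under NNK differed between the well with a 1-digit number, at 34.5 CPM, and the wells with 2-digit numbers, at 13 and 14.9 CPM. Under CSC the 3 CDKN2A wells, all with 2-digit numbers, held 22 to 37.2 CPM, beside 22.9 to 38.9 CPM under DMSO. PGD in the same CSC wells ran from 184 to 229.9 CPM, against 137 to 161 CPM under DMSO, and RPIA was at 0 in all 3, against 1.12 to 2.88 CPM.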
